A study of Mus musculus with 6 samples.

Results

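Agilent mouse expression arrays carry, beside probes for mRNAs, a large set of probes placed in long intergenic noncoding RNA (lincRNA) regions, and these probes were examined in 3T3 fibroblasts treated with an antisense oligonucleotide against the long noncoding RNA Ntep. They were taken by name, as all non-control probes whose names begin with A_30_P, and numbered 16251 of 55681 probes, or 29.2%. For comparison, 26279 probes had an mRNA accession. The study asked which transcripts change when Ntep is silenced. 3T3 cells, a line of mouse embryonic fibroblasts, received 50 nM GapmeR Ntep or 50 nM GapmeR control for 48 h. A GapmeR is a short DNA oligonucleotide with modified ends that directs RNase H to cut the RNA it pairs with. There were 3 arrays per label, from 3 independent experiments that each gave 1 array of either label, and all 6 arrays were on 1 slide. All cultures were grown in DMEM with 10% FBS. The arrays read bulk RNA of a culture, so fewer cells of a kind and less RNA per cell cannot be told apart.

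LincRNAs are transcribed by RNA polymerase II from stretches between protein-coding genes. Most are spliced and polyadenylated like mRNAs, but they are usually less abundant and many remain in the nucleus. Some act on genes near their own site of transcription, others act in trans or serve as scaffolds for protein complexes, and for many no function is known. A probe in such an interval can also read RNA that extends beyond an annotated gene, or RNA from its promoter running in the opposite direction.

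Each probe reads 60 bases of 1 strand, and its annotation gives only an interval of the mouse genome (build mm9) and a strand. The 16251 probes fell on 3555 intervals with a median width of 7328 bases (range 62 to 7128487), with a median of 3 probes and at most 10 per interval and strand. Probes on both strands were present for 1067 intervals. Many intervals overlapped, and merging those that did left 2231 loci. A position was missing for 118 probes. The probe sequences below are shown because the results that follow turn on them, and they are written as the sense strand that each probe reads. The first pair has the largest rise and the largest fall. The next pair reads the same bases of chromosome 3 on opposite strands. The pair after that belongs to overlapping intervals of chromosome 8 and shares 40 bases, given in capitals. The last set lies near Eldr, Irf1 and Nlrc5.
A_30_P01019634, chr1:138571774-138571833, forward: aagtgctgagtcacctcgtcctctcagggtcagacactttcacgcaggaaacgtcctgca
A_30_P01019184, chr1:85038372-85038431, reverse: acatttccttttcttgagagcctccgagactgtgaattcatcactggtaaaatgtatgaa
A_30_P01022407, chr3:96082796-96082855, forward: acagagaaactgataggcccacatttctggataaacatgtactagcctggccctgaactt
A_30_P01022918, chr3:96082796-96082855, reverse: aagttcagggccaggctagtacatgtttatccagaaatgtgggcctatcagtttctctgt
A_30_P01024275, chr8:124397797-124397856, reverse: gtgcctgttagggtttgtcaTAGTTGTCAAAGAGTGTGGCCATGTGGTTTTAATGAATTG
A_30_P01028489, chr8:124397777-124397836, reverse: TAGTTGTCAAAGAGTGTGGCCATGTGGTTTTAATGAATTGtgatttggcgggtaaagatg
A_30_P01020971, chr11:16835140-16835199, reverse: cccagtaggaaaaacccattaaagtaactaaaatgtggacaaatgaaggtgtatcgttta
A_30_P01028276, chr11:53609314-53609373, reverse: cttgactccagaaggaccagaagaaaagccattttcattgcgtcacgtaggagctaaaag
A_30_P01028457, chr8:96993939-96993998, forward: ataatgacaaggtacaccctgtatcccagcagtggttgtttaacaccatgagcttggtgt

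The targeted RNA was read by 1 probe (A630089N07Rik in the files, chr16:98283712-98283771). Its normalized signals were 472, 91.5 and 226 on the arrays labelled GapmeR Ntep (experiments 1 to 3) and 271, 272 and 361 on the arrays labelled GapmeR control. The probe was therefore lower under GapmeR Ntep in experiments 2 and 3 and higher in experiment 1, so experiment 1 went against its label, and the fitted difference of -0.48 on the log2 scale had an adjusted p of 0.632 (limma). Counts below are also given for experiments 2 and 3 alone. Of 10 fibroblast markers, 8 were well above background on all 6 arrays, including Col1a1, Col3a1 and Vim. Of 6 macrophage markers, Cd68, Csf1r and Itgam were well above background on all 6 arrays and Adgre1 and Ptprc on none, and the summed signal of the list was 33017 to 62713 under GapmeR Ntep against 15486 to 21197 under GapmeR control. The summed signal of the fibroblast list was 477702 to 625912 against 702214 to 772010, and that of 4 endothelial markers, with Cdh5 and Tek well above background on no array, 728 to 806 against 559 to 635. These sums did not overlap between the labels. That of 4 epithelial markers did, with 2727 to 5354 under GapmeR Ntep against 1767 to 3750 under GapmeR control. Of these markers Krt8 and Krt18 were well above background on all 6 arrays. Whether any of these sums bears on the lincRNA probes was not tested. No lincRNA probe near Ntep could be compared. Only 2 lay within 1 Mb of its probe, the nearer at 65178 bases, and neither was well above background on any array.

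Under control conditions and under GapmeR Ntep alike, far fewer lincRNA probes than mRNA probes gave a signal. The share of lincRNA probes well above background (the scanner software's call against the local background) was 34.3%, 39.7% and 25.2% on the GapmeR Ntep arrays of experiments 1 to 3 and 36.5%, 29.7% and 29.9% on the GapmeR control arrays. The values of both labels overlapped, with means of 33.1% ± 7.33 and 32.1% ± 3.86 (SD, n = 3 each; exact permutation test, two-sided, p = 1), and 3 arrays per label cannot give a p below 0.1. The mRNA probes reached 59.02% to 65.84% per array, with means of 62.7% ± 3.44 and 63.3% ± 1.44 (SD, n = 3 each). On all 6 arrays 3489 lincRNA probes (21.5%) were well above background, against 56.3% of mRNA probes. On none were 8347 lincRNA probes (51.4%), against 28.5% of mRNA probes. A larger share of lincRNA probes than of mRNA probes changed its call between arrays (27.2% against 15.2%).

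Counted by interval, 1467 of 3555 intervals (41.3%) and 1082 of 2231 loci (48.5%) had a probe well above background on all 6 arrays. Signal on both strands was read in part of them. Among the 1067 intervals with probes on both strands, 268 had such a probe on either strand, 406 on 1 strand and 393 on neither. A closer view came from 100 pairs of probes that read identical bases on opposite strands, as in the chromosome 3 pair printed above. Both members were well above background on all 6 arrays in 7 pairs, 1 member in 27 and neither in 66. In 11 of the 27 the opposite strand was not well above background on any array.

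Where all 6 arrays gave a signal well above background, the level of lincRNA probes was far lower than that of mRNA probes, which compares classes of probes and not single transcripts. The median lincRNA signal was 427, 389.6 and 383.5 under GapmeR Ntep and 383, 351 and 346 under GapmeR control in experiments 1 to 3, and the mRNA median lay between 4005 and 4254. GapmeR Ntep arrays had the higher lincRNA median in 3 of 3 experiments, with means of 400.0 ± 23.4 against 360.1 ± 19.97 (SD, n = 3 each; exact permutation test, two-sided, p = 0.1, the smallest this design allows). The mRNA median went the other way, with 4124 ± 110.2 against 4248 ± 4.92 (exact permutation test, two-sided, p = 0.1). With arrays scaled to their 75th percentile the lincRNA means were 408 and 353 (exact permutation test, two-sided, p = 0.1). The mRNA means were then 4177 and 4215 (exact permutation test, two-sided, p = 0.8). A wide range lay behind the lincRNA median, with an upper quartile between 1101 and 1371.

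**Figure D1:**
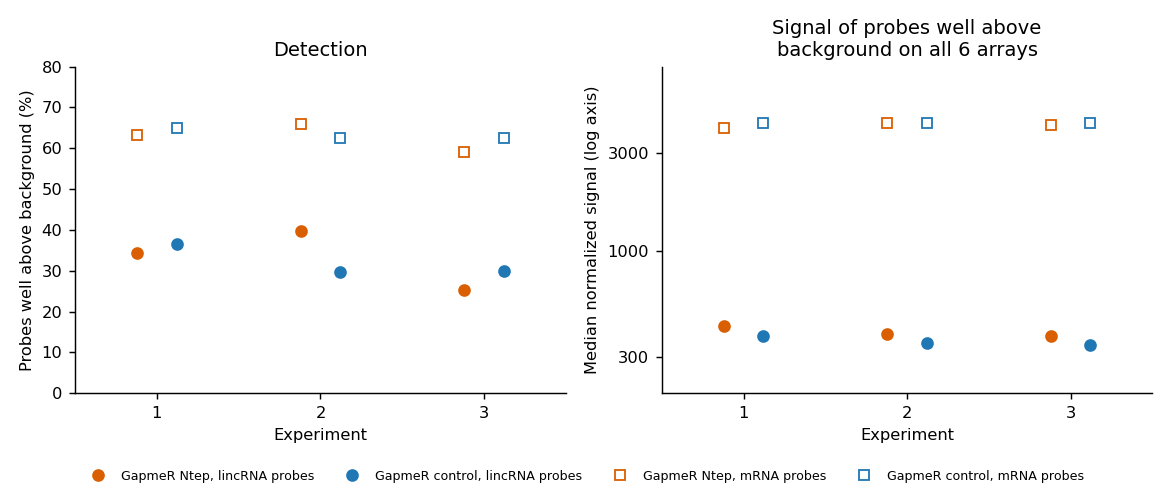
Share of probes well above background (left, percent of 16251 lincRNA or 26279 mRNA probes) and median normalized signal of the probes well above background on all 6 arrays (right, log axis), one symbol per array, by experiment and label. The lincRNA share was 25.2% to 39.7% and crossed between labels, while the lincRNA median was higher under GapmeR Ntep in each experiment.

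After quantile normalization, the brightest lincRNA intervals did not differ between the labels beyond the spread of the arrays. Quantile normalization gives every array the same distribution of signals, which limits how far the brightest probes can differ. The values below therefore cannot show whether the level of these intervals stayed the same. With another scaling, given in the last section, the log2 difference of the brightest probe turned positive. The probe with the highest mean signal, A_30_P01022075 on chr17:17481706-17482457, gave 247878, 271710.2 and 264724 under GapmeR Ntep and 262616, 279392 and 253791 under GapmeR control, a log2 difference of -0.02 (limma, adjusted p = 0.943). The next 4 intervals, on chr6:116123643-116124550, chr11:22681800-22707775, chr17:48068261-48087905 and chr14:44292637-44293014, had log2 differences of 0.07, 0.04, -0.06 and 0.06, with standard errors of 0.15 to 0.16. The nearest gene probes (Gm6712, Gm8213, B3gnt2, Foxp4 and Gm16506) were 7534 to 68672 bases away. These probes were placed by position only. Whether their sequences also match RNA of genes elsewhere, mRNAs included, was not tested.

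In the comparison of GapmeR Ntep with GapmeR control, 6753 lincRNA probes (41.6%) reached a mean of 50 or more under the brighter label and were tested. Of these, 189 rose and 231 fell by 2-fold or more with an unadjusted p under 0.01, together 6.22%, against 8.13% of all 30990 probes tested. Over all probes tested, 3.08% rose and 5.06% fell at this threshold. After Benjamini-Hochberg adjustment over all probes tested, 104 lincRNA probes rose and 139 fell by 2-fold or more with an adjusted p under 0.05 (limma). This was 3.60% of those tested, against 4.75% of all probes, of which 1.77% rose and 2.97% fell. Of the 420 called lincRNA probes 45% rose, against 37.8% over all probes. With arrays scaled to their 75th percentile the direction of this split turned, to 277 rises and 187 falls. A paired fit with the experiment as a block gave 493 probes past the adjusted threshold (241 higher, 252 lower) and 555 past the unadjusted one.

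The adjusted calls rested on the full set of arrays. Without GapmeR Ntep replicate 1 there were 87, and without GapmeR Ntep replicate 3, GapmeR control replicate 2 or GapmeR control replicate 3 there were 0, and 18 without GapmeR control replicate 1. The unadjusted counts moved less, from 295 to 535 over the 6 fits that each left out 1 array. Experiments 2 and 3 alone gave 435 unadjusted calls (224 higher, 211 lower) and 126 adjusted ones. The 3 signals of either label stood apart for 1093 lincRNA probes that were higher and 631 that were lower under GapmeR Ntep, together 25.5% of those tested, against 32.1% of all probes tested.

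The bulk of lincRNA probes lay above zero. Their median log2 difference was 0.21, with 64% of tested probes higher under GapmeR Ntep, while the median was 0.00 for 17911 tested mRNA probes and 0.06 for all probes tested. The displacement was present in each experiment, with lincRNA medians of 0.16, 0.20 and 0.13 and mRNA medians of -0.02, 0.02 and -0.00. Scaling arrays to their 75th percentile moved all medians up, to 0.38 for lincRNA probes, 0.13 for mRNA probes and 0.22 for all. Normexp background correction, under which no probe was filtered out, gave 0.03 and 0.00.

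The displacement was present in every class of signal examined. Tested probes with a mean under 50 over the 6 arrays were in no class. In 5 classes of mean signal (50 to 100, 100 to 200, 200 to 500, 500 to 2000 and over 2000), the lincRNA median was 0.16, 0.20, 0.24, 0.29 and 0.17, and the mRNA median was 0.03, -0.05, -0.09, -0.03 and 0.02. The share of called probes rose with signal for lincRNA probes, from 3.20% in the dimmest class through 6.26%, 8.23% and 9% to 9.17% in the brightest. For mRNA probes it was 8.99%, 10.5%, 13.2%, 12.2% and 7.69%, so that it was above that of lincRNA probes in all classes but the brightest. The medians varied with base composition. Probes with a GC content under 35% had a lincRNA median of -0.11 and an mRNA median of -0.21. From 35% to 40% the medians were -0.04 and -0.06, with 47.5% of 1371 lincRNA and 45.3% of 6557 mRNA probes higher. There the lincRNA probes were not displaced above zero. The medians were 0.21 and 0.04 from 40% to 45%, and 0.22 and 0.04 from 45% to 50%. Probes with at least 50% had 0.30 and 0.07. In the richest class 77.9% of 1930 lincRNA probes were higher under GapmeR Ntep, against 54.3% of 3301 mRNA probes. GC content also went with detection, since 29.8% of lincRNA probes with at least 50% GC were well above background on all 6 arrays and 14.7% of those under 35%. The part of base composition in the displacement was not tested.

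**Figure D2:**
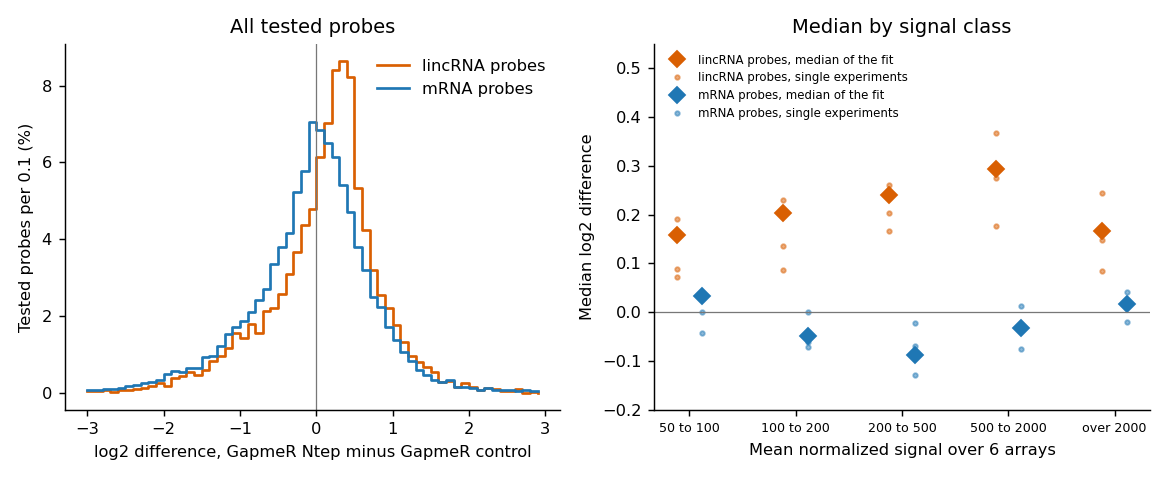
Left, distribution of the log2 difference (GapmeR Ntep minus GapmeR control) over 6753 tested lincRNA probes and 17911 tested mRNA probes, in steps of 0.1. Right, the median in 5 classes of mean signal, with diamonds for the fit over 6 arrays and small points for the single experiments. The lincRNA medians of the fit lie between 0.16 and 0.29 in every class, the mRNA medians between -0.09 and 0.03.

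The rises and falls named next are the largest past the adjusted threshold, with 1 probe per interval. The largest rise was that of A_30_P01019634 in chr1:138567345-138578139, an interval downstream of Zfp281, which encodes a zinc finger transcription factor. Its signals were 2749.7, 1911 and 2139 under GapmeR Ntep and 164, 95.7 and 62 under GapmeR control, a log2 difference of 4.50 ± 0.38 (SE, n = 3 per label; limma, adjusted p = 0.0157). The lowest GapmeR Ntep value was far above the highest control value. Zfp281 itself, 47124 bases away on the same strand, had a log2 difference of -0.50 (limma, adjusted p = 0.13). A second interval closer to Zfp281, chr1:138546641-138558591, rose as well, from 105, 59.3 and 95 to 426, 488 and 711 in A_30_P01033091 (log2 difference 2.65 ± 0.31; limma, adjusted p = 0.0236).

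Farther from Zfp281 along the same strand the direction changed. Both probes of chr1:138592780-138622719 were lower, with log2 differences of -2.10 and -1.92 and adjusted p of 0.0837 and 0.0822 (limma), past the unadjusted threshold only. In A_30_P01027496 the values were 21.9, 106 and 55 under GapmeR Ntep and 219.9, 229.5 and 200 under GapmeR control. Of the 1628 loci with a tested probe, this one (chr1:138567345-138632310 after merging) was the only locus with calls in both directions. Its highest probe lies at 138571774 and the pair that fell at 138622390 and 138622450.

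On chromosome 3, the 5 forward-strand probes of chr3:96074625-96086375 were all higher, by 2.64 to 2.86 on the log2 scale. They lie close together. A_30_P01022407 gave 31916, 9559.6 and 12839 under GapmeR Ntep and 3580.1, 2543 and 1707 under GapmeR control (log2 difference 2.66 ± 0.51; limma, adjusted p = 0.0447, and 0.0314 with the experiment as a block). The groups did not overlap, and experiment 1 had the highest values of either label. Its reverse complement on the other strand, A_30_P01022918, gave 671, 177 and 172 against 58.6, 50 and 36.5 (log2 difference 2.53 ± 0.57; limma, adjusted p = 0.0601, 0.0367 with the block). The reverse probe was well above background on 1 of 3 GapmeR control arrays. The nearest gene probe, for the Fc receptor gene Fcgr1 at 3984 bases, was not among the probes tested.

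Downstream of Slc7a5, a large neutral amino acid transporter gene, a short stretch was covered from overlapping intervals. The probes A_30_P01024275 and A_30_P01028489, which share the 40 bases in capitals above, gave log2 differences of 2.36 ± 0.34 and 2.31 ± 0.36 (limma, adjusted p = 0.0287 and 0.0319). A_30_P01024275 gave 1251, 755 and 1176 under GapmeR Ntep and 207, 138 and 285 under GapmeR control. All 4 tested probes of chr8:124355710-124401160 rose by 2.21 to 2.31. The Slc7a5 probe, 7280 bases away on the same strand, had a log2 difference of 0.35 (limma, adjusted p = 0.341).

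On chromosome 17, chr17:56687541-56694616 rose on both strands. Its 5 reverse-strand probes rose by 1.78 to 2.29 and all passed the adjusted threshold. A_30_P01018472 gave 12982, 15293 and 12058 under GapmeR Ntep and 3584, 2905 and 2567 under GapmeR control. A forward-strand probe in the same stretch, A_30_P01022603, gave 260.2, 140 and 152 against 67.9, 50.2 and 52.6 (log2 difference 1.65; limma, adjusted p = 0.037). The nearest gene probe, for Safb2 at least 11039 bases away, had a log2 difference of -0.64 (limma, adjusted p = 0.142).

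The other named rises were dim under GapmeR control, so that some give only a lower bound. A bound compares the mean of the brighter label with a limit on each array of the other label. The limit was the lowest signal well above background on that array, or the probe's own signal where that was higher. Means were taken over log2 values. A_30_P01019448 in chr8:87513394-87514107, upstream of the AP-1 gene Junb, gave 443, 204 and 207 against 33.4, 41.2 and 26.2, and was at least 5.3-fold higher (limma, adjusted p = 0.0243), while the nearest Junb probe had a log2 difference of 0.36 (limma, adjusted p = 0.373). A_30_P01022074 in chr12:88172043-88172731 was at least 2.39-fold higher (limma, adjusted p = 0.0176), A_30_P01029040 in chr10:120336296-120354471 at least 2.24-fold (limma, adjusted p = 0.049) and A_30_P01031611 on chromosome 18 at least 4.21-fold (limma, adjusted p = 0.0369). A_30_P01024011 in chr6:35441848-35450830, 14139 bases downstream of the myotrophin gene Mtpn, rose by 2.43 ± 0.46 (limma, adjusted p = 0.0421), and Mtpn had a log2 difference of 1.12 (limma, adjusted p = 0.0898).

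The largest fall was that of A_30_P01019184 in chr1:85036677-85038530, from 5238, 4476 and 3532 under GapmeR control to 222, 519 and 553 under GapmeR Ntep. Its log2 difference was -3.45 ± 0.40 (SE, n = 3 per label; limma, adjusted p = 0.0234). The other probe of the interval, A_30_P01027573, fell by 3.31 on the log2 scale (limma, adjusted p = 0.0157). All 3 tested probes of chr1:85304494-85305390 also fell. A_30_P01030738, well above background on only 1 GapmeR Ntep array, fell by 3.20 on the log2 scale. The others, which were well above background on no GapmeR Ntep array, fell at least 2.51-fold and 4.38-fold. So did A_30_P01021827 in chr1:84961943-84962737, which was at least 2.81-fold lower (limma, adjusted p = 0.0229). These intervals are close neighbours on the chromosome. Chromosome 1 held 68 of the 420 calls at the unadjusted threshold, 8 of them higher, or 13.4% of its 508 tested lincRNA probes. Of the 68, 23 were falls near a single gene, Ifi204, so these calls were clustered. The share called was 6.22% over all tested lincRNA probes and 8.13% over all probes tested. Chromosome 17 held 47, of which 34 were higher (10% of 470).

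Several falls stood beside a gene that also fell. A_30_P01020971 in chr11:16831925-16851121 gave 55.2, 41 and 54.5 under GapmeR Ntep and 276, 408 and 497 under GapmeR control, and was at least 7.01-fold lower (limma, adjusted p = 0.0182). The probe of Eldr, a long noncoding RNA gene beside the EGF receptor gene, lay 426 bases away on the same strand with a log2 difference of -1.93 (limma, adjusted p = 0.0337). A_30_P01028457 in chr8:96983590-96994419 gave 34.6, 30.2 and 20 against 218, 169 and 166, and was at least 3.69-fold lower (limma, adjusted p = 0.0182). It lies 36480 bases from the probe of Nlrc5, the transactivator of MHC class I genes, which had a log2 difference of -2.50 (limma, adjusted p = 0.0407). A_30_P01028276 in chr11:53596919-53672731, 10264 bases upstream of Gm12216, gave 49.3, 91.3 and 85.6 against 519.9, 498 and 479 (log2 difference -2.78; limma, adjusted p = 0.0184), and Gm12216 had a log2 difference of -1.89 (limma, adjusted p = 0.0493).

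All 5 probes of chr14:77511189-77522852 were lower, by 2.07 to 2.42 on the log2 scale, and 3 passed the adjusted threshold. They lie at most 286 bases from probes for Ccdc122, a coiled-coil gene, on the same strand, and these gene probes had log2 differences of -2.58 (limma, adjusted p = 0.0344) and -2.48 (limma, adjusted p = 0.0588). The other named falls lay more than 286 bases from any tested gene probe. A_30_P01027118 lay 20102 bases from the probe of A230057D06Rik on the same strand. That gene probe had a log2 difference of -1.15 (limma, adjusted p = 0.291). Its mean signals were 22.96 under GapmeR Ntep and 61.11 under GapmeR control. The Cmc1 probe, 95063 bases from A_30_P01028482, had a log2 difference of -0.19 (limma, adjusted p = 0.752). A_30_P01023508 in chr6:3283191-3284581 was at least 3.59-fold lower (limma, adjusted p = 0.0182). A_30_P01018204 in chr5:15176325-15223375 gave 65.6, 63 and 73.8 against 475, 540.4 and 425 (log2 difference -2.83 ± 0.18; limma, adjusted p = 0.0157), with the tightest spread among the named falls. A_30_P01027118 in chr7:69075022-69127242 and A_30_P01030738 in chr1:85304494-85305390 fell by 2.97 and 3.20 on the log2 scale (limma, adjusted p = 0.0357 and 0.0287). Each was well above background on only 1 of 3 GapmeR Ntep arrays. Their GapmeR Ntep values were 20, 76.6 and 59.5, and 20.4, 59.7 and 20, so the floor of 20 partly sets these sizes. A_30_P01028482 in chr9:118059348-118079494 fell by 2.88 on the log2 scale (limma, adjusted p = 0.0481) but had an adjusted p of 0.0601 with the experiment as a block.

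**Figure D3:**
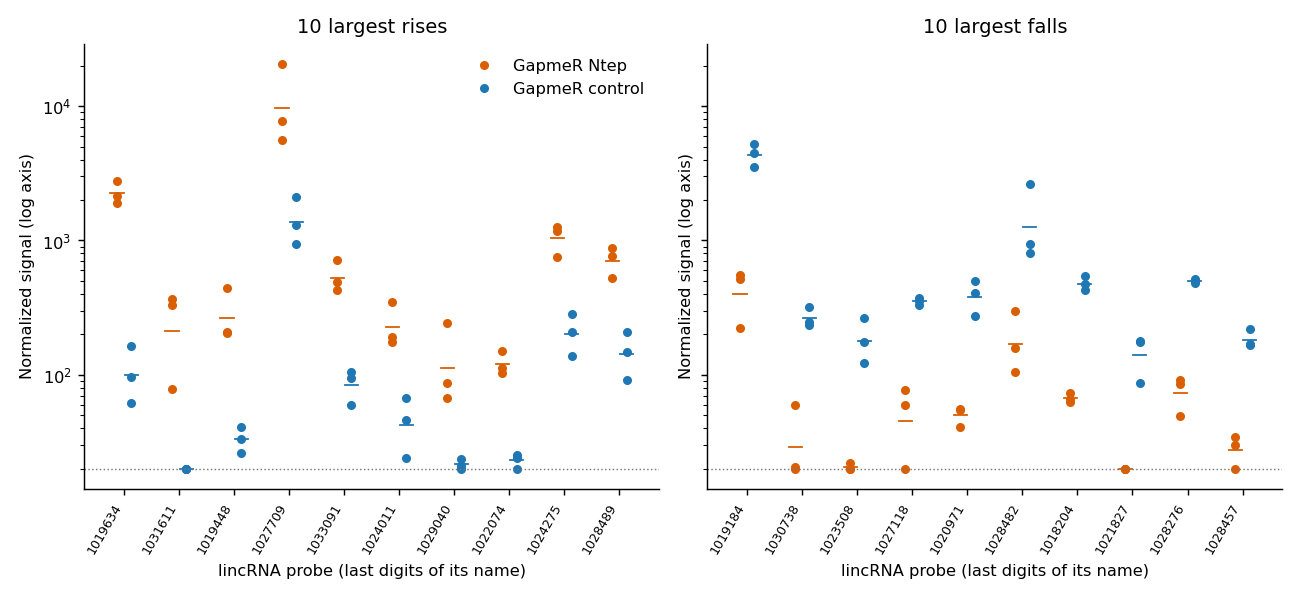
Normalized signal (log axis) of the named lincRNA probes on each array, GapmeR Ntep in orange and GapmeR control in blue, with a bar at the mean of the log2 values and a dotted line at the floor of 20. The labels do not overlap for any of these 20 probes, which were chosen as the largest changes.

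Changes were shared by probes of 1 interval. Among 7705 pairs of tested probes on the same strand of an interval, 77.9% had log2 differences of the same sign, with Pearson's r of 0.64 and Spearman's rho of 0.60 across pairs. Of these pairs 7605 shared no base, and 77.7% had the same sign. Among 5400 pairs on opposite strands the share was 68.7% and r was 0.40. With both probes well above background on all 6 arrays, the share was 87% on the same strand (3534 pairs) and 76.1% on opposite strands (1764 pairs). Pairs share arrays, and probes recur in several pairs, so no test was made. Probes of different intervals can also have the same sign, and 64% of tested lincRNA probes were higher under GapmeR Ntep. The share among such probes was not computed.

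Of 2448 intervals with a tested probe, 101 had a probe that rose and 115 a probe that fell at the unadjusted threshold. None had both. Together this was 8.82% of intervals, where 1 called probe sufficed. By probe, 6.22% of lincRNA probes and 8.13% of all probes tested were called. Every tested probe was called in 1 direction for 38 combinations of interval and strand with at least 2 tested probes, of which 12 rose. Probes of both strands were called in 17 intervals, of 1067 that carry probes on both strands, tested or not. Overlapping intervals of 1 stretch count separately here. The 38 and the 17 are plain counts without a share over all probes. In chr10:72726649-72799726, 3 forward and 4 reverse probes passed the unadjusted threshold. The reverse probes had log2 differences of -2.34 to -2.05. The forward probe A_30_P01021122, well above background on only 1 GapmeR Ntep array, had one of -2.68, a size partly set by the floor. The other 2 forward probes were well above background on no GapmeR Ntep array and were at least 1.77-fold and 1.91-fold lower. The brightest there, A_30_P01019982, gave 297, 813 and 742 against 1412, 3461 and 2756 (log2 difference -2.08; limma, adjusted p = 0.0717, 0.031 with the experiment as a block). In chr3:86827945-86886695, beside Kirrel, a cell adhesion gene, 2 forward and 2 reverse probes fell. The reverse probes had log2 differences of -2.48 and -2.37. The forward probe A_30_P01024564, well above background on only 1 GapmeR Ntep array, had one of -2.01, a size partly set by the floor. The forward probe A_30_P01021621, well above background on no GapmeR Ntep array, was at least 1.73-fold lower. There the nearest Kirrel probe on the same strand as the reverse probes had a log2 difference of -1.64 (limma, adjusted p = 0.0377). In chr1:163508244-163586072, 4 forward probes had log2 differences of -2.35 to -1.20. The 2 reverse probes that passed the threshold there were well above background on 0 and 1 of 6 arrays, so no size is given for that strand. In chr7:111526943-111545093, A_30_P01024661 on the reverse strand gave 63.8, 243 and 427 against 1410, 2006 and 1586 (log2 difference -3.13; limma, adjusted p = 0.0564, 0.0421 with the block), and A_30_P01017625 on the forward strand had a log2 difference of -1.15 (limma, adjusted p = 0.0287).

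LincRNA probes close to a gene probe had log2 differences like those of the gene, and the likeness faded with distance. For each tested lincRNA probe with a position, the nearest probe of a named gene was taken. The median distance was 15361.5 bases, and 29.3% had a gene probe within 5 kb. In that class, 1687 pairs had both members tested, and their log2 differences correlated at Pearson's r of 0.57 (Spearman's rho 0.50) across pairs. The values were 0.15 (0.13) from 5 to 20 kb (1470 pairs), 0.11 (0.07) from 20 to 100 kb (1703 pairs) and 0.10 (0.13) beyond 100 kb (368 pairs). Of 130 called lincRNA probes within 5 kb of their gene probe, 121 had the sign of the gene, and in 74 the gene probe was called in the same direction. No gene probe was called in the opposite direction. The share with a called gene probe was 56.9% there, against 9.60% over all pairs within 5 kb. From 5 to 20 kb, 11 of 93 called lincRNA probes had a gene probe called in the same direction.

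This likeness differed by strand. With the nearest gene probe on the same strand, r was 0.68 within 5 kb (1004 pairs), 0.24 from 5 to 20 kb, 0.10 from 20 to 100 kb and 0.00 beyond. With the nearest gene probe on the opposite strand, it was 0.28 (724 pairs), 0.06, 0.08 and -0.08. On the same strand, r within 5 kb was 0.65 for lincRNA probes downstream of the gene probe (640 pairs) and 0.73 for those upstream (364 pairs). Both members of a pair were measured on the same arrays. When the lincRNA difference of 1 experiment was set against the gene difference of another, r within 5 kb was 0.47 to 0.54 on the same strand and 0.13 to 0.22 on the opposite strand (6 combinations each). The pairs share genes (304 gene probes in 1004 pairs), so they are not independent. Experiments 2 and 3 alone gave 0.49 for the nearest gene probe on either strand.

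**Figure D4:**
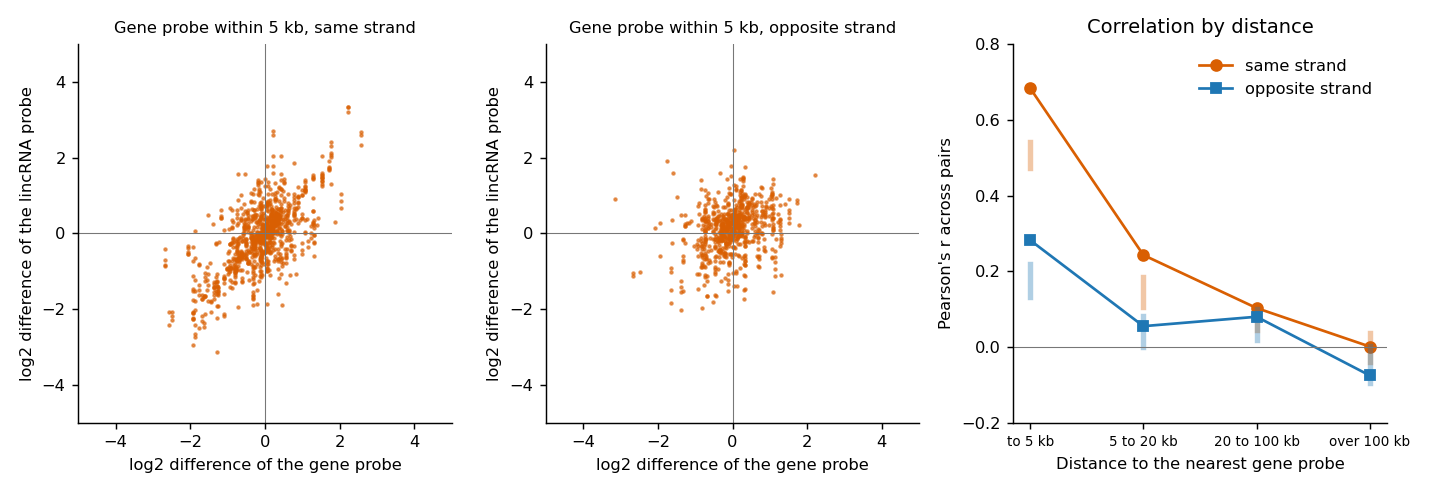
Log2 difference (GapmeR Ntep minus GapmeR control) of tested lincRNA probes against the nearest gene probe within 5 kb on the same strand (left, 1004 pairs) and on the opposite strand (middle, 724 pairs), and Pearson's r by distance (right), where points use all arrays and pale bars span the 6 combinations of different experiments. On the same strand r falls from 0.68 within 5 kb to 0.00 beyond 100 kb.

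A few lincRNA probes read promoters directly. The RefSeq promoter windows (GRCm38.p6, 250 bases before to 50 after the start) held the whole 60 bases of 170 lincRNA probes, 84 on the strand of the gene and 90 on the opposite strand, with some windows shared by divergent genes. Of the 90 on the opposite strand, 24 were well above background on all 6 arrays and 52 were tested. A call at the unadjusted threshold was made for 2 of these, at Zfp553 (log2 difference 1.5; limma, adjusted p = 0.0288) and Gm40996 (1.13; limma, adjusted p = 0.0532). The Zfp553 gene probe had a log2 difference of 0.28 (limma, adjusted p = 0.354). Over all tested probes the share called was 8.13%, and over lincRNA probes 6.22%. On the strand of the gene 2 of 37 tested were called, at 2010204K13Rik (1.03; limma, adjusted p = 0.0476) and at Gm4924 (-1.12; limma, adjusted p = 0.0447), whose own gene probe had a log2 difference of -1.69 (limma, adjusted p = 0.0312).

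Within intervals, detection differed little by position. Probes in the 5′ part of their interval, taken as the outer of 3 equal parts, were well above background on all 6 arrays in 24.7% of cases, those in the middle in 20.8% and those in the 3′ part in 20.5%. The polyadenylation motif AATAAA was present on the sense strand of 637 lincRNA probes (3.92%) and 3481 mRNA probes (13.2%), and on the opposite strand alone of 2.93% and 3.77%. Of the lincRNA probes with it on the sense strand 25.9% were well above background on all 6 arrays, and of those with it on the opposite strand 23.7%, against 21.2% of the rest.

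Of the tested lincRNA probes near interferon-stimulated genes 44 of 72 fell, and of those near immediate early genes 3 of 24 rose. Interferon-stimulated genes encode antiviral and antigen presentation proteins, and immediate early genes encode transcription factors and feedback regulators induced within minutes of a stimulus. The lists were drawn up with earlier results of these data known. Of 62 interferon-stimulated genes, 7 had a lincRNA probe within 50 kb, and 72 of these 93 probes were tested. Of the 72, 44 fell and 0 rose at the unadjusted threshold, where 5.06% of all tested probes and 231 of 6753 lincRNA probes fell. The others were not called, and 9 of the 72 had a value above 0. Of the 44, 32 passed the adjusted threshold, and the median log2 difference was -1.40, against 0.21 for all tested lincRNA probes. They lay in 10 loci and 25 were near Ifi204 alone, whose cluster encodes DNA sensors. Without those, 21 of 47 fell and the median was -1.26. Of 20 immediate early genes, 10 had such a probe. Of 24 tested probes 3 rose, 0 fell and 21 had a value above 0, with a median of 0.50. Of the 3 that rose, 2 passed the adjusted threshold. At this threshold 3.08% of all tested probes and 189 of 6753 lincRNA probes rose. Of all tested lincRNA probes, 64% had a value above 0.

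The probes next to Herc6, which encodes an interferon-induced ubiquitin ligase were lower on both strands, with 6 of 9 tested probes past the unadjusted threshold. A_30_P01025357, on the strand of the gene and 37 bases from its probe, gave 4084, 8736 and 7752 under GapmeR Ntep and 18559.5, 25164 and 19409 under GapmeR control (log2 difference -1.68; limma, adjusted p = 0.0466). The opposite strand of nearly the same bases, read by A_30_P01032772, gave 32.1, 156 and 98.8 against 310.5, 279.5 and 254 (-1.83; limma, adjusted p = 0.119). The labels did not overlap on either strand, and Herc6 itself had a log2 difference of -1.65 (limma, adjusted p = 0.0392). At most 1202 bases from another Herc6 probe, A_30_P01021483 and A_30_P01022335 in chr6:57560819-57569928 had log2 differences of -1.81 and -2.08 (limma, adjusted p = 0.0362 and 0.0358).

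Near Irf1, which encodes an interferon regulatory factor, 5 of 10 tested probes fell, with a range of -2.78 to 0.91. All 3 tested probes near Nlrc5 fell. Near Isg15, a ubiquitin-like modifier gene, 5 of 18 fell and the median was -0.56, while the Isg15 probe had a log2 difference of -2.67 (limma, adjusted p = 0.0583). Near Trim30a 2 of 7 fell. The immediate early neighbours that rose were 1 probe each near Dusp1, Fosb and Junb. A_30_P01029170 near Fosb, an AP-1 subunit gene, rose by 1.19 on the log2 scale (limma, adjusted p = 0.0402) beside a Fosb difference of 2.46 (limma, adjusted p = 0.0243). Beside Junb, the probe named among the rises was at least 5.3-fold higher, and the other 4 tested probes had log2 differences of 0.05 to 0.73. Jun had a difference of 1.91 (limma, adjusted p = 0.032), and its lincRNA neighbour A_30_P01022562 one of -0.62 (limma, adjusted p = 0.161). Klf2 had a difference of -2.13 (limma, adjusted p = 0.064), and its 2 tested lincRNA neighbours had 0.33 and 0.16.

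**Figure D5:**
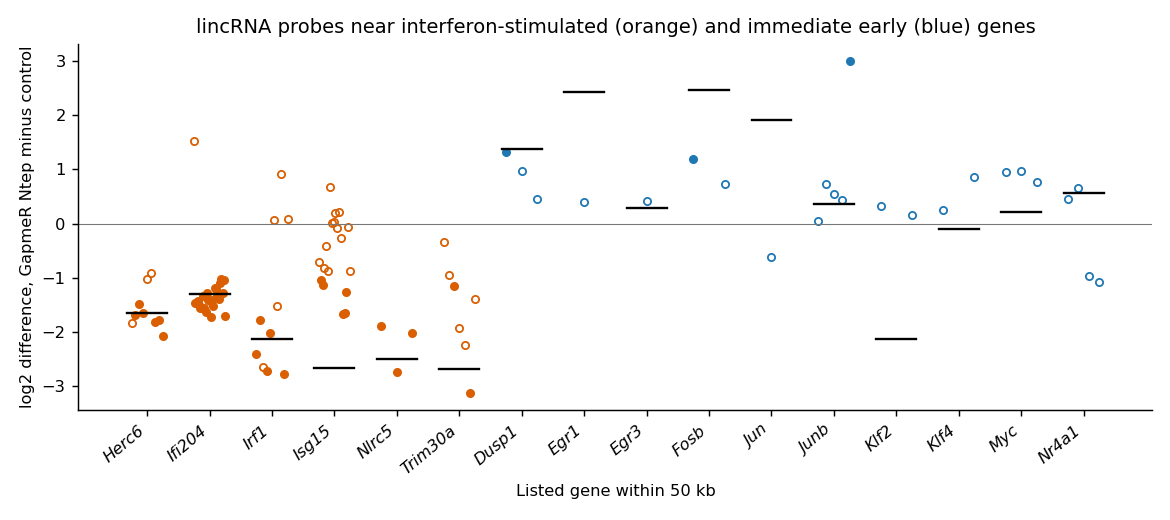
Log2 difference of every tested lincRNA probe within 50 kb of an interferon-stimulated gene (orange) or an immediate early gene (blue), filled where a probe passed a fold change of 2 and an unadjusted p of 0.01. Black bars give the gene's own probe nearest to the closest lincRNA probe. Filled points lie below 0 for all interferon-stimulated genes shown and above 0 for Dusp1, Fosb and Junb.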

How the data were processed

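RNA of 3T3 cells was labelled in 1 color and hybridised to Agilent arrays, 3 per label. The authors deposited scanner intensities (Agilent Feature Extraction 10.7.3.1, background subtracted) and a table of normalized intensities. Here the processed intensities of the spots of a probe were averaged, quantile normalized between arrays, set to at least 20 and taken to log2. Probes reaching a mean of 50 under the brighter label were tested unpaired in limma 3.58.1 (R 4.3.3), adjusting p over all probes tested (Benjamini-Hochberg). Replicate numbers mark shared experiments, as the study's supplement gives the same culture day, and deviations of same-numbered arrays correlated at 0.466, 0.3 and 0.254. A fit with the experiment as a block was an alternative. Named probes were the 10 largest rises and 10 largest falls past the adjusted threshold that were well above background on all 3 arrays of the brighter label and moved the same way in 3 experiments, the 5 brightest intervals, up to 8 intervals with all probes of a strand called, up to 6 called on both strands, up to 10 probes near listed genes, and the nearest gene of each. Other named probes were chosen after their values were seen. Gene names came from RefSeq (31252 probes, 22950 genes). The scripts were tested on simulated data. Members and lists were chosen with earlier results of these data known. The p-values rest on 3 arrays per label.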

Additional observations from a re-analysis of the deposited data

How the results depend on the processing

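With 243 lincRNA probes past the adjusted threshold, alternatives gave 493 with the replicate block, 139 with normexp background correction, 50 with no filter on dim probes, 126 for experiments 2 and 3 alone (chosen after seeing the data) and 25 with the methods' t-test. Leaving out 1 array gave 0 to 233. The 420 unadjusted calls became 192 (normexp) and 238 (the methods' t-test), or 295 to 535 without 1 array, and the 216 intervals became 91 (normexp), or 159 to 290. The median log2 difference was 0.38 with 75th percentile scaling, 0.025 with normexp, 0.00 with no filter, and 0.16 to 0.24 without 1 array. The share of same-strand pairs with the same sign was 82.8% with 75th percentile scaling, 60.4% with normexp, 60.2% with no filter, 84.9% with a filter on well above background, 87.0% for pairs well above background on all 6 arrays, 75.4% for experiments 2 and 3, and 75.9% to 77.9% without 1 array. The neighbour correlation within 5 kb was 0.43, 0.40, 0.67, 0.66 and 0.49 in the order normexp, no filter, well above background filter, lincRNA probes on all 6 arrays and experiments 2 and 3, 0.68 and 0.28 on the same and opposite strand, and 0.50 to 0.59 without 1 array. The detected share was 63.9% by the scanner's weaker call, and the median signal of lincRNA probes well above background on all arrays became 26.85 over all lincRNA probes. The bright probe A_30_P01021243 turned to 0.15 with 75th percentile scaling, and the log2 difference of A_30_P01022075 to 0.21 (75th percentile scaling), 0.032 (normexp) and 0.0095 (experiments 2 and 3), with -0.052 to 0.017 when 1 array was left out. The cause was not tested. Of the 20 named rises and falls, 0 stayed past the adjusted threshold without GapmeR Ntep replicate 3, GapmeR control replicate 2 or GapmeR control replicate 3. With the methods' t-test 2 stayed, without GapmeR control replicate 1 4, with no filter 7, for experiments 2 and 3 alone 12, without GapmeR Ntep replicate 1 13 and with normexp 15. The replicate block ended the call of A_30_P01028482.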
